A study of Mus musculus with 6 samples.

Results

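The mouse genes for the nuclear-encoded subunits of the respiratory chain and ATP synthase were followed in 4T1-LM3, a murine mammary carcinoma line, grown with 1 of 2 conditioned media (CM). The members were the genes of the deposited expression table whose symbols belong to the Ndufa, Ndufb, Ndufc, Ndufs and Ndufv, Sdha to Sdhd, Uqcr, Cox4 to Cox8 and Atp5 families, 79 of 16426 genes in all. Of these, 36 were counted by symbol in complex I, 4 in complex II, 8 in complex III, 14 in complex IV and 17 in complex V. Ndufa4 stands in complex I by its symbol only, and the medians with Ndufa4 counted in complex IV are given at the end. A total of 77 members reached 1 FPKM, the fragment number corrected for transcript length and library size, in at least 3 of the 6 libraries and were tested, among 10804 tested genes in all. In 3 libraries the cells had received Tdo2high MFs CM, from matrix fibroblasts with high Tdo2, the gene for tryptophan 2,3-dioxygenase; in the other 3 they had received Control CM. The labels do not give the source of the control medium, the time of exposure or whether the samples were separate cultures. The p-values therefore rest on how far these 6 samples vary among themselves, and that variation may be technical. All values come from 1 cell line, without any genetic change named in the labels.

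Complex I takes electrons from NADH and complex II takes them from succinate, and both pass them to ubiquinone. Complex III hands them on to cytochrome c, complex IV passes them from cytochrome c to oxygen, and complexes I, III and IV pump protons across the inner mitochondrial membrane. Complex V, the ATP synthase, lets the protons flow back and makes ATP. Most subunits are encoded in the nucleus and imported, a smaller set is encoded in mitochondrial DNA, and the transcripts of the mitochondrial genome were not analysed here. Cancer cells keep using the chain to different degrees, for ATP and to regenerate the oxidised cofactors needed for growth.

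The 6 FPKM columns summed to between 438603 and 447415, and the number of fragments behind them is unknown. Of the 5 carcinoma line markers in the table, Krt8, Krt18 and Vim were abundant, while Epcam did not exceed 0.11 FPKM and Cdh1 did not exceed 0.02 FPKM in any library. The 8 fibroblast markers summed to between 122 and 126 FPKM with Tdo2high MFs CM and to between 111 and 114 FPKM with Control CM, with Col1a1, Col1a2 and Lum at no more than 0.12 FPKM in any library. The 4 that passed the filter were Npnt, Pdgfra, Dcn and Pdgfrb. Their means were 43.2, 47.3, 10.9 and 23.1 FPKM with Tdo2high MFs CM, against 31.2, 41.9, 15.5 and 23.6 FPKM with Control CM. By limma, Npnt and Pdgfra were higher (log2 fold changes of 0.46 and 0.17), Dcn was lower (-0.48) and Pdgfrb did not pass. The part of these genes in the results below was not tested. Control CM replicate 2 stood apart for the members. It was the highest of the 3 control libraries in 55 of the 77 tested members (71.4%), against 34.2% of all tested genes, and its median deviation from the control mean was 0.056 on the log2 scale over the members and -0.0016 over all tested genes. The count of called members is also given without it.

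Together the members held between 1.83% and 1.92% of all FPKM. Atp5b, the catalytic beta subunit of ATP synthase, had the highest level of all members, at 502 ± 10.5 FPKM with Tdo2high MFs CM and 501 ± 11.5 FPKM with Control CM (SD, n = 3 each). Cox4i1, subunit 4 of complex IV, led its complex at a mean of 353 FPKM over the 6 libraries. In complex I the highest mean was that of Ndufb9, a small accessory subunit, at 324 FPKM. In GENCODE M21, 201 of its 1031 exonic bases are also exonic in Gm49356 on the same strand, and how such reads were counted is not given. The lowest mean was that of Ndufa11, an accessory subunit of the membrane arm, at 4.79 FPKM. The ratio of these transcript levels was 67.7, for genes whose proteins stand in 1 copy each in the complex. No protein was measured. The range was narrower in complex II, where Sdhc was the highest at 110 FPKM and Sdhb the lowest at 68.3 FPKM. Median levels of the tested members of complexes I to V, as means of 3 libraries, were 49.0, 82.6, 75.3, 163.5 and 159 FPKM with Tdo2high MFs CM, against 48.1, 83.2, 73.3, 164.4 and 152 FPKM with Control CM.

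**Figure D1:**
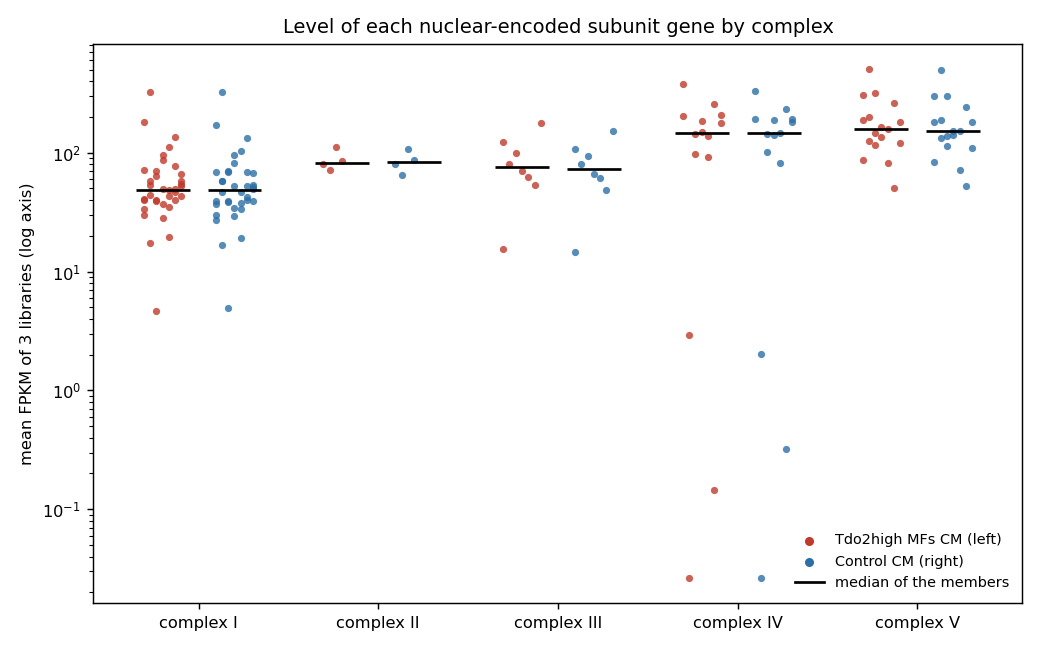
Mean FPKM over 3 libraries (log axis) of each of the 79 subunit genes, grouped by complex on the horizontal axis, with Tdo2high MFs CM on the left of each pair and Control CM on the right; bars are the median of the members. The distributions of both media lie at nearly the same height in every complex, and the lowest points of complex IV are Cox7a1, Cox6a2 and Cox4i2.

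The main result was a small one. With Tdo2high MFs CM, 6 of the 77 tested members were higher and 0 were lower than with Control CM by limma (Benjamini-Hochberg adjusted p under 0.05 over all 10804 genes), and 71 did not pass. Of all tested genes, 3.35% were called higher and 4.06% lower, 7.41% in all, so the share of members called at all, 7.79%, was near the background, and all of it was in the higher direction. At an unadjusted p under 0.05 by limma, 23 members were higher and 3 lower (Ndufa5, Ndufs5 and Atp5o), where 9.68% of all tested genes were higher and 14.1% lower. The 6 called members were Ndufv2, Uqcr10, Uqcrh, Cox4i1, Cox6b1 and Atp5j2, with log2 fold changes of 0.11 to 0.21 on the log2(FPKM + 1) scale. No fold change of a called member exceeded 1.16 as a ratio of means. In bulk RNA, fewer cells of a type and less RNA per cell cannot be told apart.

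The sign of the change was uneven as well. Among the 77 tested members 59 had a log2 fold change above 0 and 18 below 0, whereas 43.6% of all tested genes lay above 0 and 56.4% below. The median log2 fold change was 0.061 for the members and -0.014 for all tested genes, and single members ran from -0.13 (Ndufa6) to 0.39 (Cox7a1). All 3 Tdo2high libraries lay above all 3 control libraries in 19 members, against 11.6% of all tested genes, and below them in 2 members, Ndufs5 and Atp5o, against 17.5% of all tested genes; 29.2% of all tested genes were free of overlap in either direction. Under 18 alternative settings the number of members above 0 ran from 52 to 65 of 77 and the median from 0.029 to 0.077. Without control CM replicate 2 the count of higher members was 11, where 293 of all 10804 tested genes were higher, and without control CM replicate 1 it was 1 (Uqcrh), where 229 were. The medians of complexes I to V were 0.063, 0.056, 0.13, 0.12 and 0.073 without control CM replicate 2, and 0.036, 0.0034, 0.029, 0.061 and 0.033 without control CM replicate 1.

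**Figure D2:**
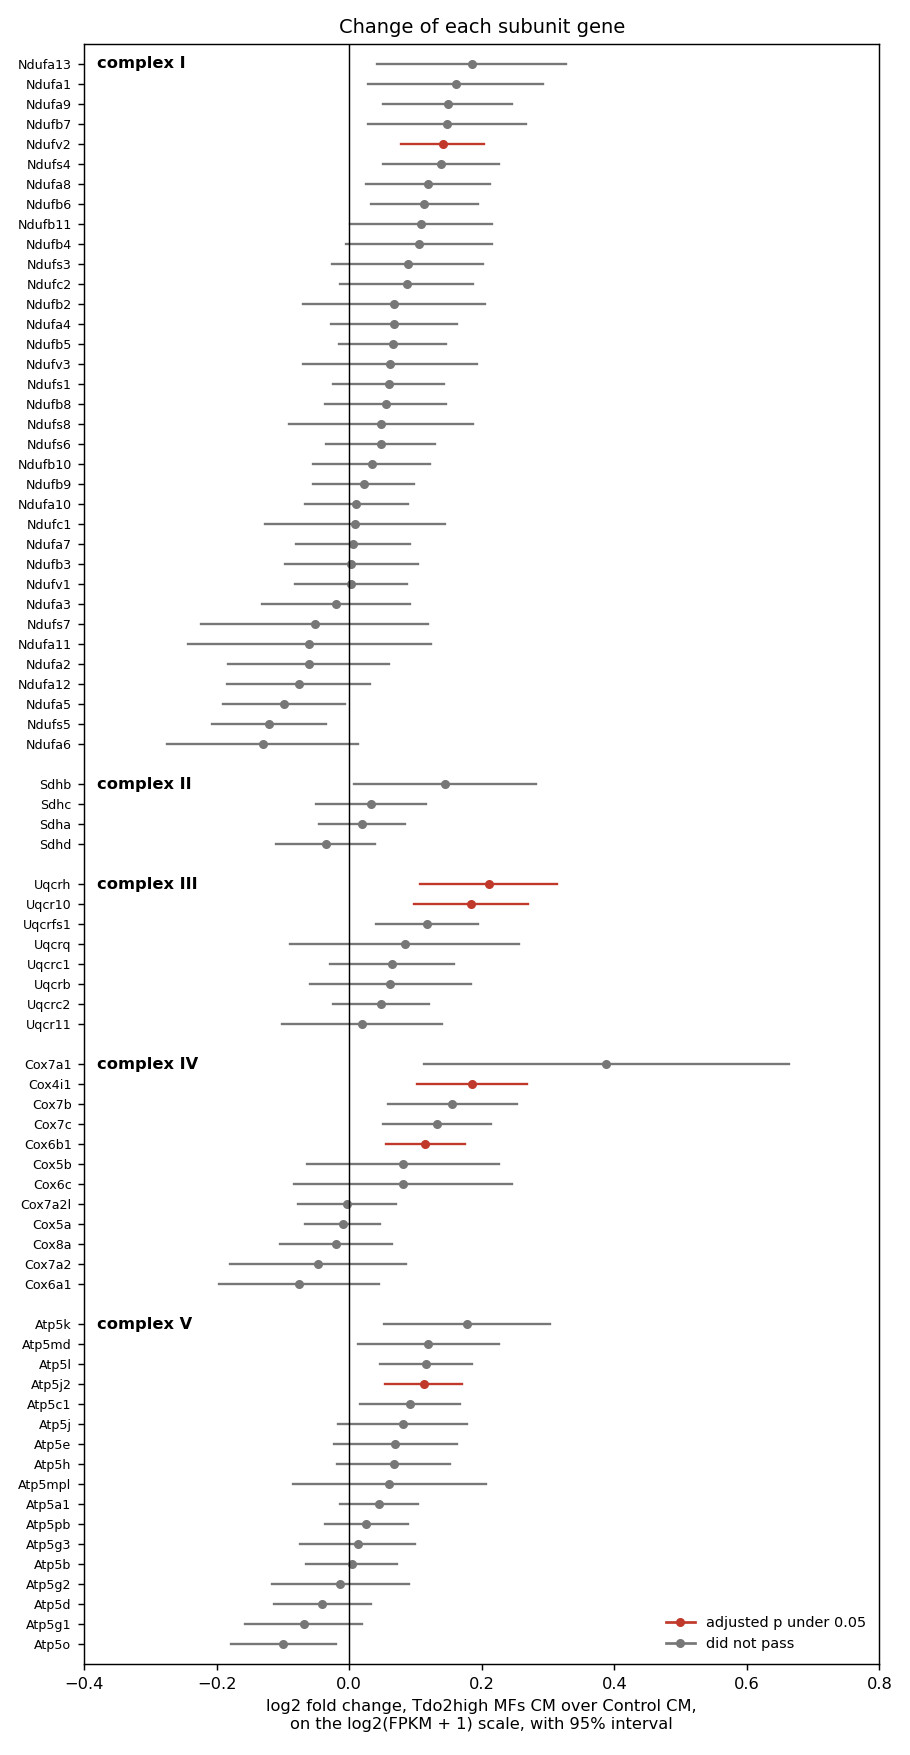
Log2 fold change of 76 of the 77 tested subunit genes, Tdo2high MFs CM over Control CM on the log2(FPKM + 1) scale, with its 95% interval from limma, ordered by size within complex I to V; red marks an adjusted p under 0.05. Most points lie right of 0, the red ones lie between 0.11 and 0.21, and the widest interval is that of Cox7a1, whose mean was 2.47 FPKM.

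Cox4i1 encodes the subunit 4 isoform that most tissues use and that holds binding sites for adenine nucleotides. It had 365, 397 and 365 FPKM in Tdo2high MFs CM replicates 1, 2 and 3, against 322, 332 and 336 FPKM in the Control CM replicates. The lowest Tdo2high library lay above the highest control library, and the log2 fold change was 0.19 ± 0.04 (SE, adjusted p = 0.0174 by limma). Cox4i1 passed in 5 of the 6 fits that left out 1 library. It did not pass without control CM replicate 1 and, among all 18 alternatives, its call changed in 4, over which its adjusted p ran from 0.0129 to 0.0692. The gene lies on chromosome 8 from 120668225 to 120674209 (GRCm38.p6, RefSeq). In GENCODE M21, 154 of its 1550 exonic bases are also exonic in Emc8 on the other strand, and the strandedness of the libraries is not given in the sources used here; Emc8 itself had 8.49 ± 0.15 FPKM with Tdo2high MFs CM and 8.30 ± 0.336 FPKM with Control CM (log2 fold change 0.03).

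Cox6b1 encodes the subunit on the intermembrane side of complex IV that touches the other copy in the dimer. Its levels were 207, 212 and 206 FPKM with Tdo2high MFs CM, against 196, 190 and 191 FPKM with Control CM, without overlap. The log2 fold change was 0.11 ± 0.03 (SE, adjusted p = 0.0308 by limma). Of the 6 calls this was the one that changed most often, in 13 of 18 alternatives, with adjusted p between 0.0233 and 0.286, and it was lost in every fit that left out 1 library. Cox6b1 lies on chromosome 7 from 30616971 to 30626114.

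Both called members of complex III are small subunits. Uqcrh, the acidic hinge protein that sits beside cytochrome c1, had 172, 185 and 171 FPKM with Tdo2high MFs CM, against 161, 153 and 142 FPKM with Control CM. The groups did not overlap, and the log2 fold change of 0.21 ± 0.05 (SE, adjusted p = 0.0245 by limma) was the largest of the 6. Uqcr10, a small subunit with a single membrane helix, had 124, 120 and 121 FPKM with Tdo2high MFs CM, against 106, 114 and 102 FPKM with Control CM. Every Tdo2high library lay above every control library, and the log2 fold change was 0.18 ± 0.04 (SE, adjusted p = 0.0216 by limma). The call of Uqcrh changed in 8 of 18 alternatives and that of Uqcr10 in 7. Uqcrh passed without Tdo2high CM replicate 3 and without control CM replicate 1 and failed in the other 4 such fits, while Uqcr10 passed only without control CM replicate 2 among those 6 fits. Uqcrh lies on chromosome 4 from 116066965 to 116075070 and Uqcr10 on chromosome 11 from 4701968 to 4704344.

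In complex I the called member was Ndufv2, an iron-sulfur subunit of the module that oxidises NADH. It had 43.5, 42.6 and 44.0 FPKM with Tdo2high MFs CM, against 39.3, 39.5 and 39.1 FPKM with Control CM. The control libraries differed by less than 0.5 FPKM and all lay below the lowest Tdo2high library. The log2 fold change was 0.14 ± 0.03 (SE, adjusted p = 0.0173 by limma). In complex V the called member was Atp5j2, subunit f of the membrane part of ATP synthase, which had 166, 163 and 162 FPKM with Tdo2high MFs CM, against 151, 154 and 150 FPKM with Control CM. These groups did not overlap either, and the log2 fold change was 0.11 ± 0.03 (SE, adjusted p = 0.0290 by limma). Among the fits without 1 library, both genes passed without control CM replicate 2, Ndufv2 also passed without Tdo2high CM replicate 2, and neither passed in the rest. Ndufv2 lies on chromosome 17 from 66078795 to 66101559 and Atp5j2 on chromosome 5 from 145183704 to 145191541.

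**Figure D3:**
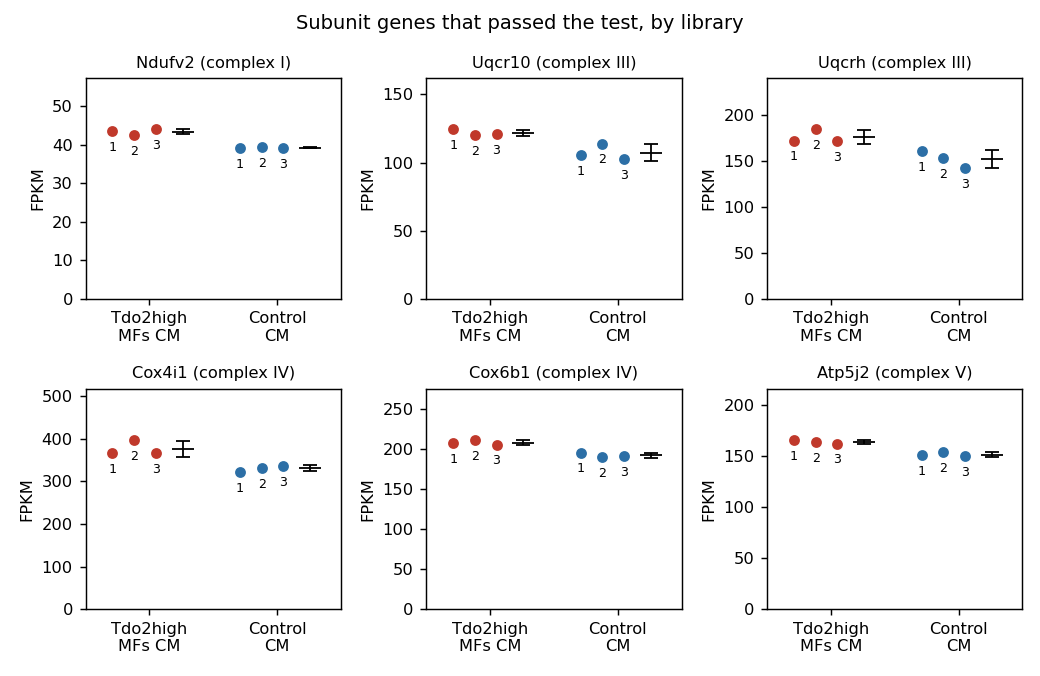
FPKM of the 6 called subunit genes in each library, 1 panel a gene, with Tdo2high MFs CM on the left and Control CM on the right; numbers are replicates, and the bar beside each set of points is the mean with its SD (n = 3). In every panel all 3 Tdo2high libraries lie above all 3 control libraries, by a margin that is small beside the level itself.

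The 36 members of complex I had a median log2 fold change of 0.052, with 28 above 0 and 8 below 0. The core subunits of the peripheral arm carry the flavin and the iron-sulfur clusters. Besides Ndufv2, none of the 7 passed. Ndufv1, which binds NADH and the flavin, had 40.0 ± 1.64 FPKM with Tdo2high MFs CM and 39.9 ± 1.21 FPKM with Control CM (SD, n = 3 each), a log2 fold change of 0.003 with a 95% interval of -0.08 to 0.09. Ndufs1, which holds several of the clusters, Ndufs3, which lies towards the ubiquinone end, and Ndufs8 had log2 fold changes of 0.06, 0.09 and 0.048. Ndufs7, which holds the last cluster before ubiquinone, had -0.05, with a 95% interval of -0.22 to 0.12.

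The accessory subunits are listed here by symbol. All 10 Ndufb members, which belong to the membrane arm, had log2 fold changes above 0, 0 passed by limma, and 3 were higher at an unadjusted p under 0.05 (30.0%, against 9.68% of all tested genes); over the 18 alternatives between 8 and 10 of them lay above 0. Of the 12 Ndufa members other than Ndufa4, 6 lay above and 6 below 0, and 4 were higher (33.3%) and 1 lower at an unadjusted p under 0.05. This split into parts was made after the values were seen. Ndufa13, also known as GRIM-19, had the highest fold change of complex I, with 38.8, 47.9 and 42.9 FPKM with Tdo2high MFs CM, against 37.0, 39.4 and 37.0 FPKM with Control CM. Control CM replicate 2 lay above Tdo2high replicate 1, and the log2 fold change of 0.18 ± 0.06 (SE) did not pass (adjusted p = 0.113 by limma). Ndufa6, a small subunit of the peripheral arm, had the lowest, with 64.3, 60.7 and 67.4 FPKM with Tdo2high MFs CM, against 69.5, 78.1 and 63.8 FPKM with Control CM. Those groups overlapped and the log2 fold change was -0.13 ± 0.06 (SE, adjusted p = 0.256 by limma). Ndufs5, an accessory subunit on the intermembrane side, was chosen here after its values were seen. It had 53.6, 54.6 and 51.6 FPKM with Tdo2high MFs CM, against 60.0, 59.2 and 54.9 FPKM with Control CM. Its 3 Tdo2high libraries all lay below its controls, and the log2 fold change was -0.12 ± 0.04 (SE, adjusted p = 0.0906 by limma).

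Complex II had a median log2 fold change of 0.026. Of its 4 members 0 passed by limma, and 1, Sdhb, was higher at an unadjusted p under 0.05. Sdhb, its iron-sulfur subunit, had the highest fold change, with 72.5, 67.6 and 75.0 FPKM with Tdo2high MFs CM, against 59.2, 71.4 and 64.1 FPKM with Control CM. Control CM replicate 2 lay above Tdo2high replicate 2, and the log2 fold change was 0.14 ± 0.06 (SE, adjusted p = 0.188 by limma); without control CM replicate 2 Sdhb passed, at adjusted p = 0.0442. The flavoprotein Sdha, which oxidises succinate, had 79.5, 81.9 and 81.0 FPKM with Tdo2high MFs CM, against 78.0, 82.1 and 79.1 FPKM with Control CM. The groups overlapped, and the 95% interval of the log2 fold change ran from -0.05 to 0.08. The membrane anchors Sdhc and Sdhd had log2 fold changes of 0.033 and -0.036.

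Complex III had a median log2 fold change of 0.074, and all 8 members lay above 0, a count that ran from 6 to 8 over the alternatives. Uqcrfs1, the Rieske iron-sulfur protein that takes electrons from ubiquinol, had 53.2, 52.1 and 54.3 FPKM with Tdo2high MFs CM, against 48.9, 50.9 and 47.2 FPKM with Control CM. The groups did not overlap, and at a log2 fold change of 0.12 ± 0.03 (SE) it missed the threshold (adjusted p = 0.0697 by limma). The core proteins Uqcrc1 and Uqcrc2, relatives of mitochondrial processing peptidases, had 0.06 and 0.048, and the lowest member was Uqcr11 at 0.019. The catalytic subunit cytochrome c1, Cyc1, falls outside the symbol families used here. It had 44.2, 41.2 and 43.5 FPKM with Tdo2high MFs CM, against 43.8, 47.3 and 45.5 FPKM with Control CM, and a log2 fold change of -0.08 ± 0.04 (SE, adjusted p = 0.221 by limma).

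The 12 tested members of complex IV had a median log2 fold change of 0.081, and 7 lay above 0. Several of its subunits exist as isoforms whose use differs by tissue. Cox7a1, the heart and skeletal muscle form of subunit 7a, was the member just inside the filter, at 2.71, 2.52 and 3.56 FPKM with Tdo2high MFs CM, against 2.35, 2.16 and 1.51 FPKM with Control CM. Its libraries did not overlap and its log2 fold change of 0.39 ± 0.12 (SE) was the highest of all members, without passing (adjusted p = 0.0891 by limma). Cox7a2, the form used in most tissues, made up 97.1% of the summed FPKM of both genes with Tdo2high MFs CM and 98.1% with Control CM, and had a log2 fold change of -0.05. Cox7a2l, a relative that joins complexes III and IV into a supercomplex, had -0.004.

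The other muscle and lung isoforms were close to absent. Cox6a2, the heart and muscle form of subunit 6a, did not exceed 0.44 FPKM in any Tdo2high library and 0.61 FPKM in any control library, and was left out by the filter, as was Cox4i2, known from lung, at 0.08 FPKM in 1 library of each group and listed at 0 in the rest. Cox6a1, the widely used form, had the lowest fold change of the complex, with 141, 142 and 135 FPKM with Tdo2high MFs CM, against 144, 162 and 136 FPKM with Control CM. The groups overlapped, at a log2 fold change of -0.08 ± 0.05 (SE). Cox8a, the widely used form of subunit 8, had -0.02. Cox6b2, Cox8b and Cox8c have no entry under these symbols in the deposited expression table. Among members named after their values were seen, Cox7c and Cox7b came close to the threshold at log2 fold changes of 0.13 and 0.16 (adjusted p = 0.0593 and 0.0615 by limma).

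Complex V had 13 of 17 members above 0 and a median log2 fold change of 0.061. No subunit of the catalytic head passed. Atp5b had 0.004, with a 95% interval of -0.06 to 0.07, the alpha subunit Atp5a1 had 0.045, and Atp5c1, the gamma subunit that turns inside the head, had 0.09 ± 0.03 (SE, adjusted p = 0.136 by limma). The small membrane subunits Atp5j2, Atp5k, Atp5l, Atp5md and Atp5mpl lie where the synthase dimer bends the membrane. All 5 were above 0, 4 or 5 of them over the 18 alternatives, with a median of 0.12, or 0.050 with GC content and length corrected. This part, too, was set apart after the values were seen. Atp5k, subunit e, had the highest change of the complex, with 79.6, 84.8 and 80.2 FPKM with Tdo2high MFs CM, against 74.1, 77.3 and 65.0 FPKM with Control CM. The groups did not overlap, but the control libraries spread by more than 12 FPKM and the log2 fold change of 0.18 ± 0.06 (SE) did not pass (adjusted p = 0.0876 by limma). Atp5l, subunit g, chosen after its values were seen, had 0.12 ± 0.03 (SE, adjusted p = 0.0522 by limma).

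At the other end was Atp5o, the stalk protein that ties the head to the membrane part, also known as OSCP. It had 123, 126 and 125 FPKM with Tdo2high MFs CM, against 130, 142 and 130 FPKM with Control CM. All Tdo2high libraries lay below all control libraries, and the log2 fold change was -0.10 ± 0.04 (SE, adjusted p = 0.124 by limma). The proton-carrying c ring is encoded by 3 genes whose mature proteins are the same. With Tdo2high MFs CM, Atp5g3 made up 56.8% of their summed FPKM, Atp5g2 33.8% and Atp5g1 9.41%. With Control CM, Atp5g3 made up 56.2%, Atp5g2 34.0% and Atp5g1 9.84%. In that order of genes, the log2 fold changes were 0.013, -0.013 and -0.07, and none passed, adjusted or not.

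Summed over its genes, complex III held 688, 676 and 673 FPKM with Tdo2high MFs CM, against 617, 657 and 600.3 FPKM with Control CM, a ratio of means of 1.09. Complex IV held 2014, 2057 and 2024 FPKM with Tdo2high MFs CM, against 1904, 1996 and 1903 FPKM with Control CM, a ratio of 1.05. In these complexes the libraries of the media did not overlap, and with 3 against 3 an exact permutation test cannot go below 0.1. The sums of complexes I, II and V overlapped through control CM replicate 2, at ratios of 1.03, 1.02 and 1.03. Sums weigh the most abundant genes most and carry no test.

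**Figure D4:**
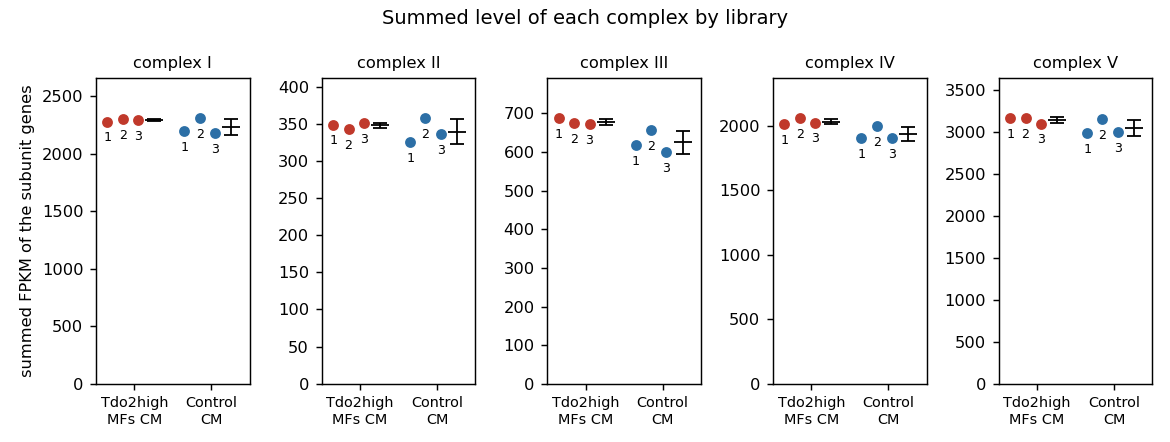
Summed FPKM of the member genes of each complex in each library, with Tdo2high MFs CM on the left and Control CM on the right of each panel; numbers are replicates and the bar beside them is the mean with its SD (n = 3). In every panel control CM replicate 2 is the highest control, and in complexes III and IV all Tdo2high libraries lie above it.

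The transcripts of the members are short. Their median length was 765 bases, against 2960 bases for the 10633 tested genes with a length. Among tested genes under 1000 bases, the 49 members had a median log2 fold change of 0.062 and the 600 other genes 0.021. In this class 71.4% of the members and 58.3% of the other genes lay above 0, and 10.2% and 7.0% were called higher. At 1000 bases or more, the 28 members had 0.054 and the 9956 other genes -0.017. There 85.7% of the members and 42.1% of the other genes lay above 0, and 3.57% and 2.96% were called higher. With GC content and length corrected within each library, 3 members were called higher, Cox4i1, Ndufv2 and Uqcr10, and 2 lower, Ndufs5 (-0.17, adjusted p = 0.0239 by limma) and Atp5o (-0.12, adjusted p = 0.0326). The medians of complexes I to V were then 0.030, 0.034, 0.086, 0.029 and 0.018, against 0.052, 0.026, 0.074, 0.081 and 0.061 without the correction. The median of the members was then 0.029 and that of all tested genes -0.003, and the whole table was split into 437 higher and 354 lower calls, against 362 higher and 439 lower without the correction. Uqcrh, Cox6b1 and Atp5j2 did not pass after it, at adjusted p = 0.0702, 0.232 and 0.0599. What part transcript length or GC content has in the uncorrected values was not tested beyond this.

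**Figure D5:**
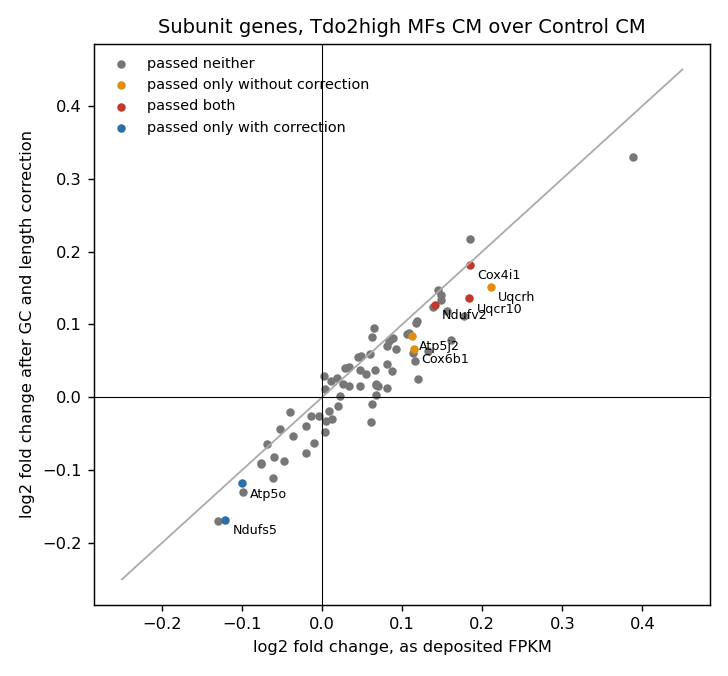
Log2 fold change (Tdo2high MFs CM over Control CM) of the 77 tested subunit genes from the deposited FPKM on the horizontal axis and after GC content and length were corrected within each library on the vertical axis; the grey line marks equal values. Most points lie below the line; 3 genes passed both ways (red), 3 only without the correction (orange) and 2, both below 0, only with it (blue).

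Some members share sequence with other annotated genes. Of the stretches of 100 bases in its transcript, Atp5g2 shares 86.4% with transcripts of other annotated genes, Atp5l 69.0%, Cox7c 44.4% and Ndufb4 33.4%. Atp5h shares 32.7%, Atp5o 30.3%, Atp5md 28.5%, Ndufb6 28.2%, Ndufs5 27.0% and Ndufa13 24.0%. The values of all these genes are uncertain, and the other members share less or nothing. Cox4i1 shares 8.26%, and Ndufv2, Uqcr10, Uqcrh, Cox6b1 and Atp5j2 share none. Exons that overlap a gene on the other strand took up 39.0% of Ndufb6 (with Smim27), 35.6% of Atp5o and 30.0% of Ndufa13 (with Tssk6).

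The 79 genes lie on 19 chromosomes, with no more than 6 on any one. RefSeq promoters (GRCm38.p6, from 250 bases before to 50 bases after the start) were matched for 65 members, 70 promoters in all, and were searched on both strands for 3 motifs of factors known to act on respiratory genes, each motif on its own. The GABP motif CCGGAAG occurred in 24.3% of the members' promoters, in 18.9% of the promoters of tested genes and in 8.86% of all promoters. The NRF1 core, GCGC followed by any base and TGCGC, occurred in 25.7%, 10.6% and 4.6% of these sets in the same order, and the YY1 motif AANATGGC in 24.3%, 8.76% and 6.05%. A match describes the letters and is no evidence of binding. The 150 bases before the start are shown for the called genes that have an entry, with CTTCCGG, the reverse complement of the GABP motif, in capitals.
Ndufv2, chr17:66101560-66101709, minus strand: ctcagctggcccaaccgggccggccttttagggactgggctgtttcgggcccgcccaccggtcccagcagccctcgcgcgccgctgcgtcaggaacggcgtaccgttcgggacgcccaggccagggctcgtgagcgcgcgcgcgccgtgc
Uqcr10, chr11:4704345-4704494, minus strand: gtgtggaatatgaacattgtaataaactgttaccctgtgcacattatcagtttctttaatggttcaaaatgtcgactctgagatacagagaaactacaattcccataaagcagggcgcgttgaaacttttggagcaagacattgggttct
Uqcrh, chr4:116075071-116075220, minus strand: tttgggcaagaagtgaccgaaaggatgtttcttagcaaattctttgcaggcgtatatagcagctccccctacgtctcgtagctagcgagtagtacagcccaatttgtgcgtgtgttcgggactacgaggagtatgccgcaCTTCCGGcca
Cox6b1, chr7:30626115-30626264, minus strand: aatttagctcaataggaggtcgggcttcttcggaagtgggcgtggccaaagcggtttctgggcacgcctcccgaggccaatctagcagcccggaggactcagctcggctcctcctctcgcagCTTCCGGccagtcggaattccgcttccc
Atp5j2, chr5:145191542-145191691, minus strand: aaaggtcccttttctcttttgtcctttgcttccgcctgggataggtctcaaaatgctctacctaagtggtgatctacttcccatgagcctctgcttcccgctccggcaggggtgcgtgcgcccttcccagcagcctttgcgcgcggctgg
The GABP motif starts at position -10 from the start in Uqcrh and at -28 in Cox6b1. The YY1 motif of Atp5j2 starts 23 bases after the start, outside the stretch shown, and in Ndufv2 and Uqcr10 none of the 3 motifs occurred in the window. These promoters also differ in composition, with a GC content of 75.3% in Ndufv2 and 38.7% in Uqcr10.

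Genes that build, feed or regulate the chain were listed beside the subunits. Of 131 tested genes on these lists, 3 were higher (2.29%) and 2 lower, where 3.35% of all tested genes were higher and 4.06% lower. Their median log2 fold change was -0.019, near the -0.014 of all tested genes. Among the 58 assembly factors the median was -0.022, with 21 above 0 and 37 below 0. Cox20, which helps to assemble the mitochondrially encoded subunit 2 of complex IV, had 69.6, 68.1 and 67.6 FPKM with Tdo2high MFs CM, against 59.7, 56.1 and 58.0 FPKM with Control CM. The groups did not overlap, at a ratio of means of 1.18 and a log2 fold change of 0.24 ± 0.03 (SE, adjusted p = 0.00174 by limma). This call changed in 1 of 18 alternatives, with adjusted p of up to 0.0639. With GC content and length corrected, the log2 fold change of Cox20 was 0.16 (adjusted p = 0.0399 by limma). Bcs1l, which inserts the Rieske protein into complex III, had 9.08, 9.14 and 9.75 FPKM with Tdo2high MFs CM, against 11.2, 10.4 and 10.6 FPKM with Control CM. It was lower without overlap (-0.18 ± 0.05, SE, adjusted p = 0.0435 by limma), and its call changed in 12 alternatives.

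Atpif1, the inhibitor that stops ATP synthase from running backwards, had 117, 116 and 116 FPKM with Tdo2high MFs CM, against 102, 109 and 97.9 FPKM with Control CM. It was higher in all 3 libraries, at 0.18 ± 0.04 (SE, adjusted p = 0.0203 by limma). Its call was lost in 7 of 18 alternatives: when low genes were kept in (adjusted p = 0.0692, the highest), without the intensity trend and in each fit without 1 library except that without control CM replicate 2. The outer membrane porin Vdac1 was higher as well (0.10 ± 0.03, adjusted p = 0.0410), and Idh2, the NADP-linked mitochondrial isocitrate dehydrogenase, was lower (-0.15 ± 0.03, adjusted p = 0.0288). The call of Vdac1 was lost in 10 of 18 alternatives, with adjusted p of up to 0.128, and passed among the fits without 1 library only without control CM replicate 2. That of Idh2 was lost in 7, with adjusted p of up to 0.102, among them the fits without Tdo2high CM replicate 2 or 3 and without control CM replicate 1 or 2. Cytochrome c itself, Cycs, had 14.5 ± 0.823 FPKM with Tdo2high MFs CM and 16.2 ± 1.17 FPKM with Control CM (SD, n = 3 each), and did not pass (-0.15, adjusted p = 0.132). Of 15 tested regulators of mitochondrial biogenesis 0 passed by limma. Their median log2 fold change was -0.049, with 5 above 0 and 10 below 0, where 56.4% of all tested genes lay below 0. At an unadjusted p under 0.05, 2 lay each way (13.3%), near the shares over all tested genes of 9.68% higher and 14.1% lower. Nrf1, Gabpa, Esrra and Tfam had log2 fold changes of 0.011, -0.049, -0.06 and 0.06, and the coactivators Ppargc1a and Ppargc1b stayed below the filter, at no more than 0.08 and 0.70 FPKM in any library. Yy1, named after its values were seen, had 39.0, 39.2 and 37.4 FPKM with Tdo2high MFs CM, against 35.6, 36.0 and 34.6 FPKM with Control CM. Its log2 fold change of 0.12 ± 0.03 (SE) did not pass (adjusted p = 0.0537 by limma). Among the same regulators, Polrmt and Pprc1, also named after their values were seen, each had a log2 fold change of -0.16. Neither passed (adjusted p = 0.0697 and 0.125 by limma).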

How the data were processed

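PolyA RNA was copied with random hexamers and sequenced at BGI, per the labels' protocols. The authors deposited 1 table of FPKM, per the file headers, on the build GRCm38, per the submitters' processing notes; what aligned and counted the reads, with which annotation and strand setting, is not given in the sources used here. Groups came from the sample titles, which match the 6 columns, and 0 columns were left unmapped. A total of 26 symbols turned into dates by a spreadsheet were replaced through their gene numbers. Members follow the symbol rule in the report; members and lists were chosen with earlier results of these data known.

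Genes with at least 1 FPKM in 3 of 6 libraries were tested as log2(FPKM + 1), which understates the change of low genes. The test was limma 3.58.1 in R 4.3.3 (intensity trend, two-sided, group only, Benjamini-Hochberg over 10804 genes, threshold 0.05). It was checked on simulated data in which genes varied independently. Every change planted there was larger than that of any called member, so the check does not cover changes as small as these. Intervals are 95%. FPKM is scaled to each library's total, so all changes are relative. Steps of whole reads were sought in low values: 45.9% of 715 ratios lay within 0.1 of a whole number, so reads could not be recovered and depth is unknown. Genes named were all called members, the extremes and the most abundant of each complex, isoform families, core subunits, the called genes of the related lists and a few regulators; the others were named after their values were seen. The values of 1 member are not reported here, though it stays in the counts. Lengths, GC content, shared stretches and exon overlaps came from GENCODE M21 (GRCm38), positions and promoters from RefSeq GRCm38.p6. The alternatives changed the pseudocount, the filter, the scaling or the variance model, added a replicate block or a GC and length correction, or left out 1 library. Same-numbered libraries did not deviate together (Pearson r = -0.023, -0.030 and 0.018 across genes), where differently numbered ones ran from -0.077 to 0.092. This cannot show whether same-numbered libraries were handled together, so a fit with the replicate block is given as an alternative. Python 3.11.15, pandas 2.3.3 and matplotlib 3.10.9 were used.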

Additional observations from a re-analysis of the deposited data

How the results depend on the processing

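The count of 6 higher members stayed between 5 and 9 under other pseudocounts, scalings, robust variances, the 5 FPKM filter and the replicate block. Over all tested genes, between 296 (replicate block) and 434 (median of ratios) were higher under these settings, against 362 in the main fit. The count of higher members was 2 with no filter on low values, 0 without the intensity trend, and 3 with the GC and length correction, also with the replicate block added. Calls in the whole table moved too. With no filter 199 of 16397 genes were higher, and without the trend 248 of 10804. With the correction 437 of 10633 were higher, and 323 with the block added. The count of lower members, 0 in the report, was 2 with that correction, with and without the block. Leaving out 1 library gave between 1 and 11 higher members (1 without control CM replicate 1, 11 without control CM replicate 2) and between 0 and 1 lower (Ndufs5, without control CM replicate 3). Such fits have fewer samples, and calls in the whole table fell to between 395 and 559. The replicate block called 622 genes in all and 5 members higher (Cox4i1, Ndufa9, Ndufv2, Uqcr10 and Uqcrh). The 5 calls among related genes became 1 with no filter, 3 with quantile normalization or the replicate block, 2 without the trend, 10 with the GC and length correction, 3 with that correction and the block, and between 1 and 5 without 1 library. Over all tested genes the calls were 801 in the main fit, 394 with no filter, 786 with quantile normalization and 525 without the trend. They were 791 with the GC and length correction and 574 with that correction and the block. Apart from the construction of these fits, the cause was not tested. The median over the members was above 0 in all 18 alternatives, and leaving out Cox7a2l left 6 higher members; with Ndufa4 counted in complex IV the medians were 0.049 for complex I and 0.081 for complex IV. None of 60 genes followed changed sign past the threshold: 973 gene values kept their side of the threshold, 32 of them with a change of sign while not called, 83 lost the call and 23 gained it. Unknown depth and 3 libraries a group limit what can be called.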
